A study of Mus musculus with 12 samples.

Results

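The genes described here encode RNA polymerase II (Pol II) and the general transcription factors, the proteins that assemble with it at promoters. They were taken by name, as 12 Pol II subunits, 7 genes of TFIIA, TFIIB, TFIIE and TFIIF, 8 genes of TFIIH and its CDK-activating kinase, 13 genes of TFIID, and 4 genes of the elongation kinase P-TEFb and its inhibitor HEXIM1. These 44 members were all listed among the 20775 genes of each table. The rule names genes and uses no measured value, but the list was drawn up with earlier results of these data known.

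RNA-seq was performed on Med30 knockout and control mouse hearts at 2 stages, with 3 samples in each of the 4 groups. Med30 encodes a subunit of Mediator, the complex that links transcription factors to Pol II. At E10.5 the RNA came from embryonic hearts of Med30 f/f mice carrying Tnnt-Cre (cKO), a Cre driven by the cardiac troponin T promoter, or of littermates without Cre (Ctrl). At 4 weeks post-TAM (tamoxifen) it came from cardiomyocytes isolated from mice of 3 months of age, Med30 f/f with αMHC-MerCreMer (icKO), a tamoxifen-dependent Cre driven by the α myosin heavy chain promoter, or Med30 f/f without Cre (Ctrl), and both of these groups received tamoxifen. The strain label of all samples was C57BL/6, the labels call the controls wild type, and the floxed allele descends from 1 embryonic stem cell clone. Since no Ctrl mouse carried Cre, loss of Med30 and the Cre itself cannot be told apart in these RNA data. In the paper, αMHC-MerCreMer mice lacking a floxed allele showed no deaths or loss of heart function after tamoxifen. RNA of such mice was not among these samples. The sources do not say whether each sample was 1 animal, and p-values measure only the spread between these samples.

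Transcription by Pol II starts when TFIID, which contains the TATA-binding protein TBP, binds a promoter and is joined by TFIIA, TFIIB, Pol II with TFIIF, TFIIE and TFIIH. The CDK7 kinase of TFIIH then phosphorylates the carboxy-terminal domain of POLR2A, the largest Pol II subunit, and P-TEFb (CDK9 with cyclin T1 or T2) releases polymerase that has paused shortly after the start. Mediator contacts Pol II during this assembly and stimulates phosphorylation by CDK7.

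Expression levels are given as scaled RPKM, the deposited reads per kilobase of gene, scaled to library size, divided by a median-ratio factor per sample, so that levels of different genes are comparable per length within a table. By an estimate from the spacing of low values, 11.98 M to 19.9 M reads lay behind each sample, so that 3 reads on a transcript of 2 kb corresponded to 0.0753 to 0.125 RPKM. Med30 itself was 9.40, 13.6 and 11.04 scaled RPKM in the E10.5 Ctrl samples and 1.46, 2.17 and 0.999 in cKO (log2 fold change -2.85, SE 0.25, limma adjusted p = 0.00124). In adult cardiomyocytes Med30 was 9.32, 8.94 and 9.21 in Ctrl and 3.08, 2.62 and 1.55 in icKO (log2 fold change -1.93, SE 0.22, limma adjusted p = 6.77e-05). Every knockout sample lay below every Ctrl sample at both stages. In RPKM as deposited, the 8 cardiomyocyte markers summed to 17521 to 18785 in adult Ctrl and 6031 to 7885 in icKO. The 20 most abundant genes took 24.2% to 24.8% of all RPKM in Ctrl against 10.7% to 12.2% in icKO. Over all genes, the median log2 fold change was 0.04 after median-ratio scaling and 0.57 with RPKM as deposited, and changes below are relative to the former.

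At E10.5, 2 of the 44 members passed the test. Polr2a was higher in cKO hearts and Polr2h was lower, and the other 42 members did not pass an adjusted p of 0.05 in limma. The background was 2.45% of 10885 genes tested called higher and 2.6% called lower, so that 1 member in each direction (2.27%) was near the share of all genes. Polr2a was the 1 member changed beyond 2-fold, where 0.698% of all genes were. The members' median log2 fold change was 0.00, beside -0.01 for all genes, and 6 members (13.6%) had an unadjusted p under 0.05, beside 23.3% of all genes. In 4 members every cKO sample exceeded every Ctrl sample (background 15.1%) and in 3 members all lay below (background 14.4%).

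Polr2a, the catalytic subunit, was 19.3, 15.8 and 17.6 scaled RPKM in E10.5 Ctrl and 40.6, 43.2 and 40.4 in cKO. The groups did not overlap, and each cKO sample exceeded the highest Ctrl sample. The mean level was 2.36-fold that of Ctrl, with a log2 fold change of 1.24 (SE 0.095, limma adjusted p = 0.000536, n = 3 per group). Its value lay between 1.1197 and 1.31 over all alternatives tried.

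Polr2h, a small subunit shared with RNA polymerases I and III, was 14.5, 13.5 and 12.5 scaled RPKM in E10.5 Ctrl and 8.26, 9.15 and 8.12 in cKO. All cKO samples were lower than all Ctrl samples, with a log2 fold change of -0.66 (SE 0.10, limma adjusted p = 0.0135). The call was close to its threshold. It was lost without Ctrl replicate 1 (adjusted p = 0.0507), without Ctrl replicate 2 (0.0524) and without Ctrl replicate 3 (0.0514), each from limma, while the log2 fold change stayed between -0.71 and -0.60. Polr2h overlaps the gene Clcn2 on the opposite strand, and Clcn2 had a log2 fold change of 0.68 at E10.5 (by limma, adjusted p = 0.173). The strand setting of the read counting is not given in the sources used here. Reads from a gene and its antisense partner may therefore be mixed where their exons overlap, which was not examined.

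Among the members that did not pass at E10.5, Ccnt2, a cyclin partner of CDK9, was nearest to the threshold, with 11.001, 13.6 and 12.5 scaled RPKM in Ctrl and 16.7, 16.96 and 15.8 in cKO (log2 fold change 0.42, limma adjusted p = 0.0519). Polr2f had a log2 fold change of -0.42 (by limma, adjusted p = 0.0754) and Taf13 of 0.74 (limma adjusted p = 0.081). The 3 were chosen after their values were seen.

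Gtf2b, Tbp, Taf1, Cdk7, Cdk9 and Hexim1, chosen by name to be given in every sample, overlapped between the E10.5 groups. Gtf2b, which encodes TFIIB, was 16.9, 16.3 and 14.6 scaled RPKM in Ctrl and 18.1, 18.1 and 15.5 in cKO, and Tbp was 5.81, 5.39 and 5.35 in Ctrl and 5.89, 6.97 and 5.62 in cKO. Taf1, which encodes the largest TFIID subunit, was 6.90, 7.83 and 6.22 in Ctrl and 6.89, 7.06 and 8.13 in cKO. These ranges crossed in each of the 3 genes, and their log2 fold changes were 0.11, 0.15 and 0.08. The kinase gene Cdk7 was 6.54, 6.13 and 6.48 scaled RPKM in Ctrl and 7.07, 6.81 and 6.47 in cKO. The kinase gene Cdk9 was 5.17, 6.79 and 6.63 in Ctrl and 5.69, 6.59 and 5.84 in cKO. Hexim1 was 3.98, 5.18 and 4.07 in Ctrl and 6.88, 5.82 and 4.49 in cKO, with the lowest cKO sample inside the Ctrl range and a log2 fold change of 0.36 (by limma, adjusted p = 0.261).

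In adult cardiomyocytes 4 weeks after tamoxifen, 43 of the 44 members could be tested, since Polr2k, a small subunit shared with RNA polymerases I and III, had a mean RPKM of 1 or less (0.563, 0.278 and 0.578 scaled RPKM in Ctrl and 0.488, 1.71 and 0.870 in icKO, with overlap). Of these, 23 were higher in icKO, 4 were lower and 16 did not pass the test. The share called higher was 53.5%, against a background of 34.7% of 9517 genes tested, and the share called lower was 9.30%, against a background of 33.5%. Beyond 2-fold there were 8 of the 43 members, 7 of them higher and 1 lower. Of the 9517 genes, 27.1% were called beyond 2-fold in either direction, 1106 genes higher and 1476 lower. All icKO samples lay above all Ctrl samples in 25 of the 43 members (background 37.5%) and below them in 5 (background 35.8%). The median log2 fold change of the members was 0.38, beside 0.04 for all genes tested. The summed RPKM, as deposited, of 7 fibroblast markers also moved with the groups, from 4.91 to 8.39 in Ctrl to 59.985 to 87.2 in icKO. Of these markers, 4 of 5 tested were higher, and the part of this shift in these counts was not tested.

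The counts depended on the scaling, and the distance to other genes moved little. With RPKM as deposited, 38 members were called higher and 2 lower, beside 60.6% and 18.1% of all genes. With scaling that left out the 20 most abundant genes, 36 were higher and 3 lower, beside 49.97% and 23.7% of all genes. With quantile normalization 24 were higher and 4 lower, beside 37.1% and 31.6% of all genes. The members' median lay 0.32 to 0.36 above the median of all genes on the log2 scale under the 4 scalings, main one included.

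Polr2a was the member with the largest change at 4 weeks. It was 10.3, 11.1 and 8.57 scaled RPKM in Ctrl and 148, 140.5 and 125 in icKO. The lowest icKO sample was far above the highest Ctrl sample, and the mean level was 13.8-fold that of Ctrl, with a log2 fold change of 3.78 (SE 0.11, limma adjusted p = 3.31e-07, n = 3 per group). Over all alternatives the log2 fold change lay between 3.66 and 4.32. Polr2a (chromosome 11, 69733997 to 69758637, minus strand, mm10) has 6740 exonic bases in GENCODE and overlaps no other protein-coding gene there, and between 757 and 20810 reads were estimated to lie behind its value in a sample.

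Polr2a was compared with the other 11 Pol II subunits within each sample, where no scaling enters. The ratio of Polr2a RPKM to the median of the other subunits was 0.619 to 0.774 in adult Ctrl and 8.04 to 9.98 in icKO, and at E10.5 it was 0.879 to 1.03 in Ctrl and 2.13 to 2.44 in cKO. Polr2a made up 5.10% to 6.26% of the summed RPKM of the 12 subunits in adult Ctrl and 40.4% to 47.7% in icKO. At E10.5 the shares were 8.74% to 9.85% in Ctrl and 19.3% to 20.9% in cKO. In every adult Ctrl sample 7 subunits had a higher RPKM than Polr2a, in E10.5 Ctrl 5 to 6 did, and in the knockout samples of both stages 0 did. Among all genes, Polr2a ranked between 3112 and 3778 by RPKM in adult Ctrl and between 164 and 224 in icKO. These ratios were chosen after the values were seen and are given without a test.

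**Figure D1:**
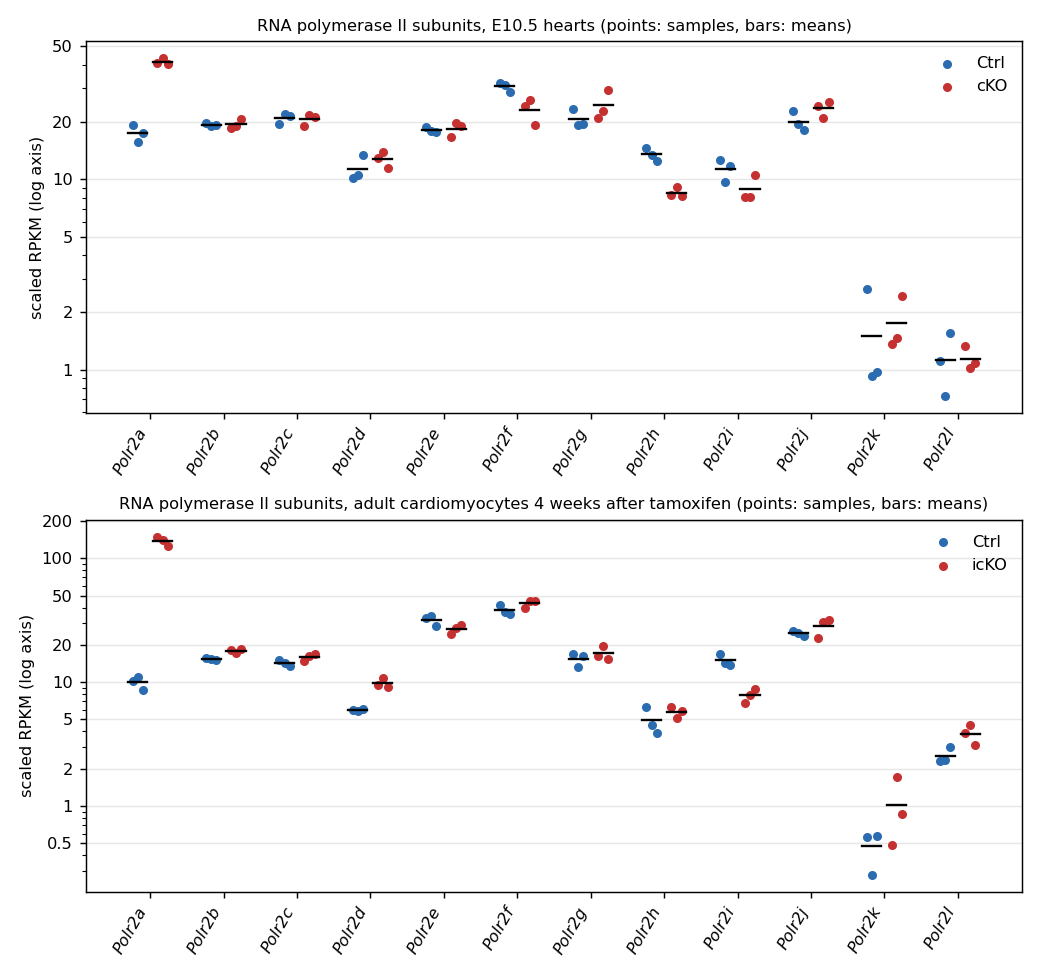
Scaled RPKM (log axis) of the 12 Pol II subunit genes in each Ctrl (blue) and knockout (red) sample at E10.5 (top) and 4 weeks (bottom), with the group mean as a black bar. Polr2a is separated between the groups at both stages, from a mean of 9.98 to 138 at 4 weeks, while the other subunits overlap between the groups or differ by less than 2-fold.

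**Figure D2:**
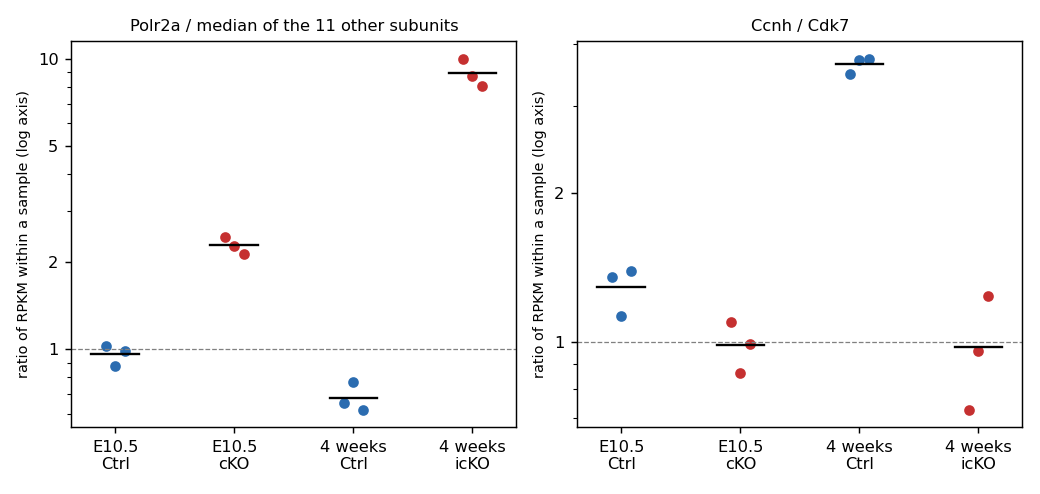
Ratios of RPKM within each sample on a log axis, Polr2a over the median of the other 11 Pol II subunits (left) and Ccnh over Cdk7 (right), with group means as bars and equality as a dashed line. The Polr2a ratio reaches 8.04 to 9.98 in the icKO samples, and the Ccnh ratio is 3.49 to 3.74 in adult Ctrl and 0.727 to 1.24 in icKO.

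Of the other Pol II subunits tested at 4 weeks, 3 were higher, 1 was lower and 6 did not pass. With Polr2a included, 36.4% of the 11 tested were higher and 9.09% lower, beside 34.7% and 33.5% of all genes. Polr2d, a subunit of the stalk that binds the emerging RNA, had a log2 fold change of 0.69 (by limma, adjusted p = 0.000237). Polr2l had 0.56 (limma adjusted p = 0.0172) and Polr2b, which forms the active cleft together with POLR2A, had 0.22 (limma adjusted p = 0.0299). The assembly partners Polr2c and Polr2j, with 0.16 and 0.18, did not pass, nor did Polr2e, Polr2f, Polr2g and Polr2h, with -0.24, 0.20, 0.14 and 0.24. Polr2l was 2.31 to 3.00 scaled RPKM in Ctrl and 3.10 to 4.54 in icKO, the lowest level of the subunits tested.

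Polr2i, a subunit with a part in transcriptional fidelity, was the 1 subunit that fell. It was 16.9, 14.3 and 13.9 scaled RPKM in adult Ctrl and 6.84, 7.93 and 8.82 in icKO. The groups did not overlap, and the log2 fold change was -0.93 (SE 0.12, limma adjusted p = 0.000165). With RPKM as deposited it was -0.39 (limma adjusted p = 0.0103). Tbcb, which overlaps Polr2i on the opposite strand, rose by 0.87 on the log2 scale (limma adjusted p = 1.44e-05).

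Of the 7 genes of TFIIA, TFIIB, TFIIE and TFIIF, 5 rose at 4 weeks (71.4%, beside 34.7% of all genes) and 2 did not pass. Their median log2 fold change was 0.97. Gtf2b was 8.03, 7.70 and 8.56 scaled RPKM in Ctrl and 31.0, 30.4 and 33.2 in icKO. The groups were far apart relative to their spread, with a 3.89-fold higher mean and a log2 fold change of 1.95 (SE 0.081, limma adjusted p = 6.29e-07). Gtf2f1, the large subunit of TFIIF, which accompanies Pol II to the promoter, was 5.53, 6.72 and 7.32 in Ctrl and 21.1, 23.2 and 19.0 in icKO (log2 fold change 1.68, SE 0.12, limma adjusted p = 6.45e-06). Its partner Gtf2f2 changed by 0.97 (limma adjusted p = 3.44e-05).

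Gtf2a1, the large subunit of TFIIA, which stabilizes TBP on DNA, was 4.60, 4.35 and 4.18 scaled RPKM in Ctrl and 15.2, 12.3 and 11.1 in icKO (log2 fold change 1.52, SE 0.13, limma adjusted p = 1.15e-05). All icKO samples were above all Ctrl samples. Gtf2a2, the small subunit of the same factor, had a log2 fold change of 0.10 (by limma, adjusted p = 0.359), with overlapping samples. In TFIIE, which recruits TFIIH, Gtf2e2 rose by 0.48 (limma adjusted p = 0.00829), and Gtf2e1 had 0.33 (limma adjusted p = 0.195).

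The 13 TFIID genes held 8 that rose, 1 that fell and 4 that did not pass, with a median of 0.42. The shares were 61.5% higher and 7.69% lower, beside 34.7% and 33.5% of all genes. Taf13, a histone-fold subunit that pairs with TAF11, was 4.36, 2.86 and 3.41 scaled RPKM in Ctrl and 15.03, 13.7 and 13.9 in icKO. The groups did not overlap, and the log2 fold change was 1.996 (SE 0.15, limma adjusted p = 6.36e-06). The other 7 that rose had log2 fold changes between 0.33 (Taf6) and 0.73 (Taf10), among them Taf11 with 0.68. Taf1 was 3.86, 4.18 and 4.22 scaled RPKM in Ctrl and 6.44, 5.98 and 5.25 in icKO, with a log2 fold change of 0.51 (SE 0.11, limma adjusted p = 0.00305).

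Tbp was 2.35, 2.70 and 2.23 scaled RPKM in adult Ctrl and 1.79, 2.01 and 1.97 in icKO. All icKO samples were below all Ctrl samples, yet the log2 fold change of -0.32 did not pass (SE 0.14, limma adjusted p = 0.0708), and with RPKM as deposited it was 0.20 (limma adjusted p = 0.221). With eBayes without a trend, Tbp was called lower (limma adjusted p = 0.0304). Taf7, which binds TAF1 and restrains its enzymatic activity, was 3.03, 3.37 and 3.25 in Ctrl and 2.43, 2.57 and 1.93 in icKO. It was called lower, with a log2 fold change of -0.47 (SE 0.14, limma adjusted p = 0.0163), but with RPKM as deposited it was 0.05 (limma adjusted p = 0.771), and the call was also lost with scaling without the 20 most abundant genes (-0.18, limma adjusted p = 0.273) and without Ctrl replicate 2 (-0.44, limma adjusted p = 0.0556). The direction of both genes turned with RPKM as deposited.

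TFIIH opens promoter DNA. Of its 8 genes at 4 weeks, 3 rose (Gtf2h1 with a log2 fold change of 0.97, Mnat1 with 0.83 and Gtf2h5 with 0.75), 2 fell and 3 did not pass, shares of 37.5% higher and 25% lower beside the background of 34.7% and 33.5%. Ccnh, the cyclin partner of CDK7, was 8.38, 9.27 and 9.90 scaled RPKM in Ctrl and 2.38, 2.79 and 3.32 in icKO. The groups were well separated, with a 3.25-fold lower mean and a log2 fold change of -1.67 (SE 0.14, limma adjusted p = 1.12e-05). The value lay between -1.79 and -1.15 over all alternatives. Rasa1, which overlaps Ccnh on the opposite strand, had a log2 fold change of 0.25 (by limma, adjusted p = 0.0552).

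Cdk7, the kinase that cyclin H activates, was 2.40, 2.496 and 2.65 scaled RPKM in Ctrl and 3.27, 2.91 and 2.69 in icKO. The samples did not overlap, but the log2 fold change of 0.22 did not pass (SE 0.13, limma adjusted p = 0.151). It was 0.74 with RPKM as deposited (limma adjusted p = 0.00089) and 0.51 with scaling that left out the 20 most abundant genes (limma adjusted p = 0.00786). Within samples, the ratio of Ccnh to Cdk7 RPKM was 3.49 to 3.74 in adult Ctrl and 0.727 to 1.24 in icKO, and the ratio of Ccnh to Mnat1, the assembly factor of the same kinase, was 2.31 to 3.31 in Ctrl and 0.395 to 0.706 in icKO. Neither ratio overlapped between the groups at 4 weeks. At E10.5 the ratio of Ccnh to Cdk7 was 1.13 to 1.39 in Ctrl and 0.863 to 1.10 in cKO, and the ratio of Ccnh to Mnat1, at 0.979 to 1.65 and 1.07 to 1.22, overlapped. These ratios were chosen after the values were seen and have no test. Gtf2h2, a core subunit, was 6.00, 4.71 and 5.76 scaled RPKM in adult Ctrl and 3.31, 3.10 and 4.00 in icKO (log2 fold change -0.65, SE 0.14, limma adjusted p = 0.00305), and with RPKM as deposited the call was lost (-0.12, limma adjusted p = 0.425).

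In P-TEFb and its inhibitor, 3 of 4 genes rose (75%) and 0 fell, beside 34.7% higher and 33.5% lower among all genes. Hexim1, whose product holds P-TEFb inactive, was 3.37, 3.60 and 4.73 scaled RPKM in adult Ctrl and 15.2, 14.9 and 15.4 in icKO (log2 fold change 1.95, SE 0.13, limma adjusted p = 3.75e-06). Cdk9 was 2.11, 2.45 and 2.27 in Ctrl and 5.35, 5.53 and 4.19 in icKO (log2 fold change 1.10, SE 0.14, limma adjusted p = 0.000137). Neither gene overlapped between the groups. Ccnt1 rose by 0.97 (limma adjusted p = 3.48e-05), while Ccnt2, the alternative cyclin, had -0.03 (limma adjusted p = 0.773). The ratio of Hexim1 to Cdk9 RPKM within samples was 1.47 to 2.08 in Ctrl and 2.69 to 3.67 in icKO, a ratio likewise chosen after the values were seen.

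**Figure D3:**
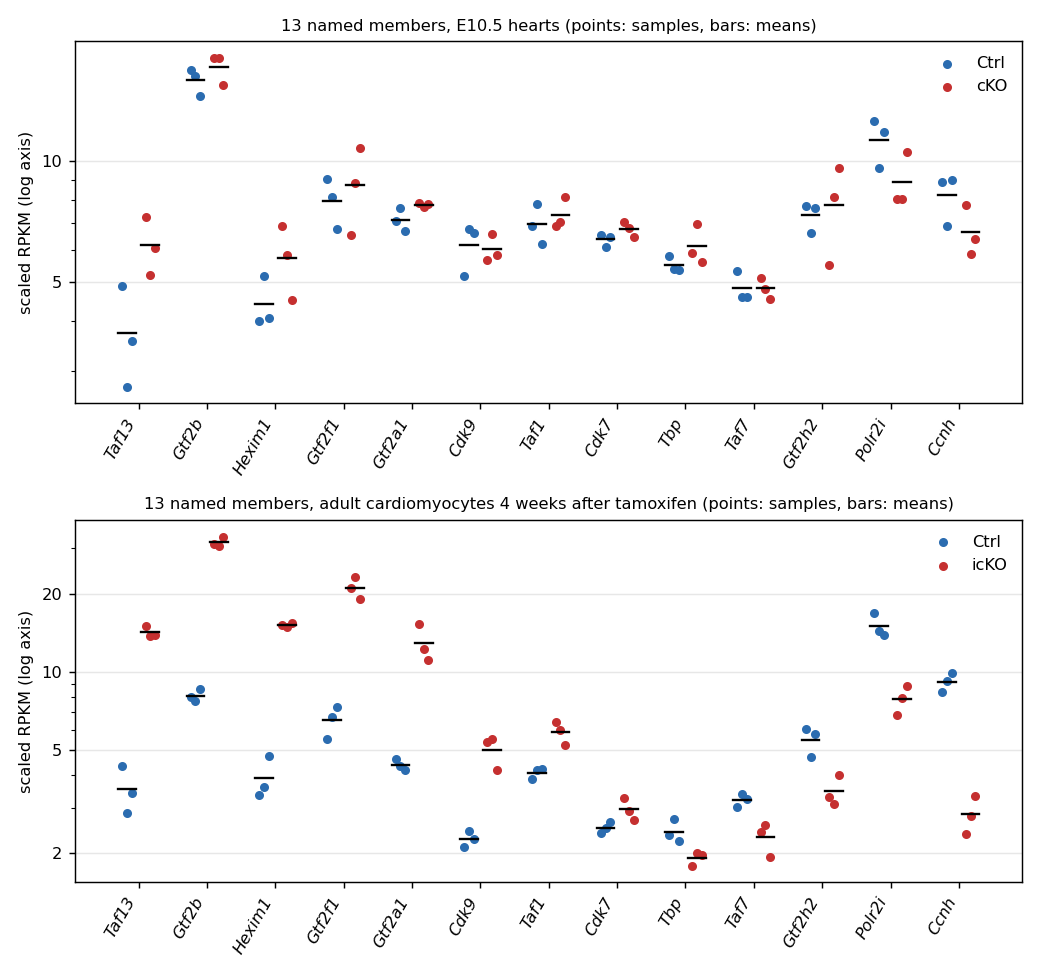
Scaled RPKM (log axis) of 13 named members in each Ctrl (blue) and knockout (red) sample at E10.5 (top) and 4 weeks (bottom), with group means as bars. At 4 weeks the samples of both groups are apart in each of the 13 genes, as in Gtf2b with 7.70 to 8.56 in Ctrl and 30.4 to 33.2 in icKO, while at E10.5 the groups overlap in most.

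**Figure D4:**
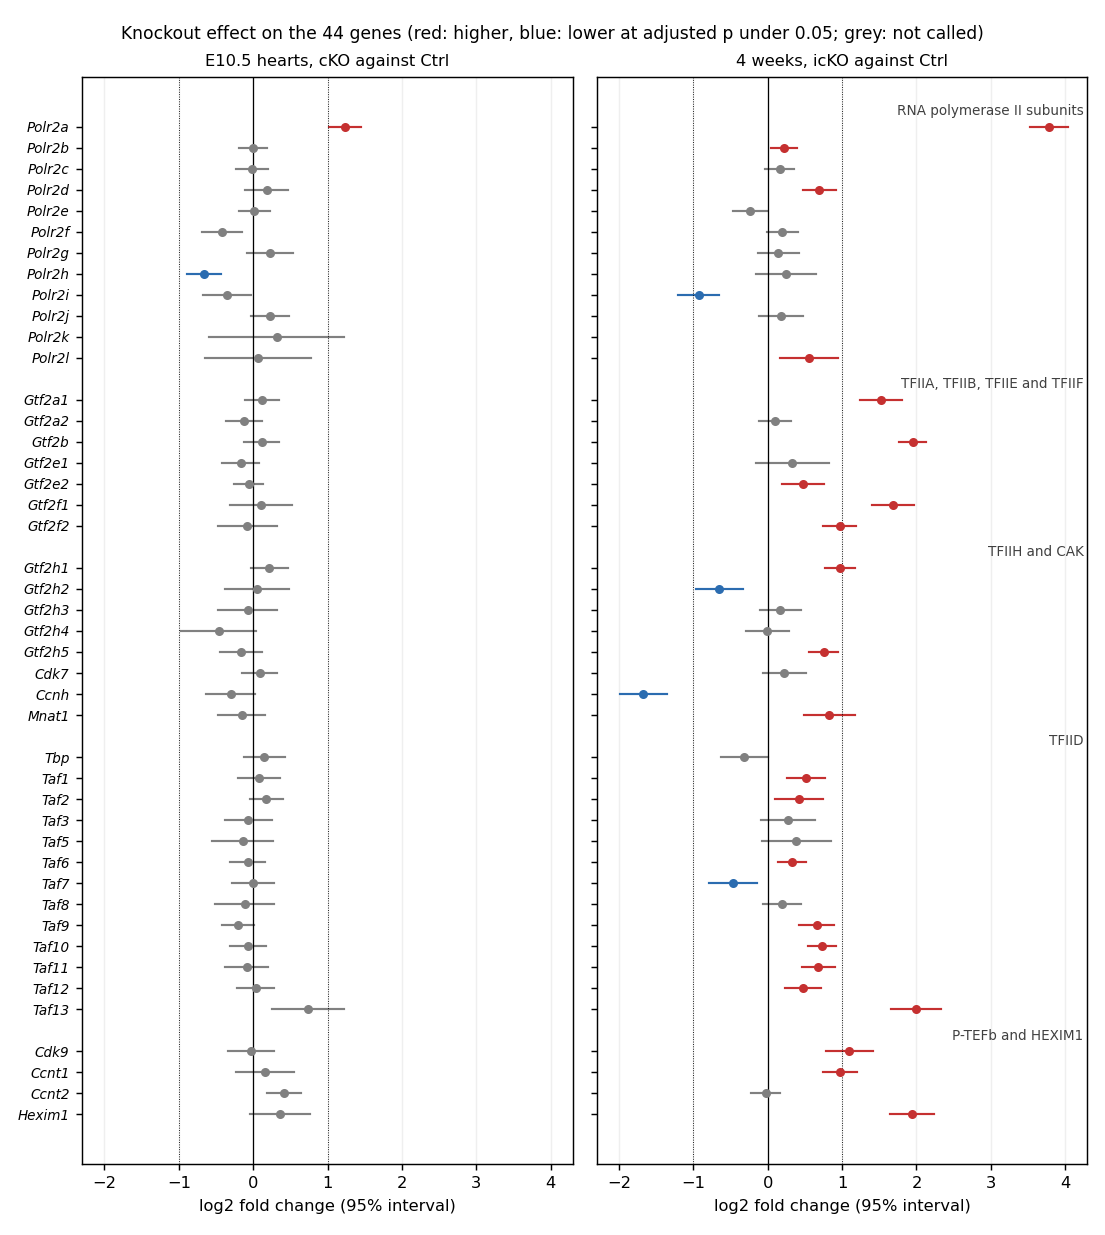
Log2 fold change of each member with its 95% interval from limma at E10.5 (left) and 4 weeks (right), by complex, with dotted lines at a 2-fold change. Polr2a lies at 1.24 and 3.78, and Ccnh, at -1.67, is the lowest value at 4 weeks.

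The stretch of 150 bases upstream of the start site is shown for the strongly raised genes Polr2a, Taf13, Hexim1, Gtf2f1 and Gtf2a1, as in the RefSeq promoter table of GRCm38.p6. Each sequence runs 5′ to 3′ along the gene's strand, and its last base lies just before the start that was annotated farthest upstream. Capitals mark the motifs searched for, on either strand. These were the TATA element TATAAA, the CCAAT element, the GC element spelled GGGCGG, the cyclic AMP response element spelled TGACGTCA, the ETS element spelled CCGGAAGT, the E-box spelled CACGTG and the palindromic NRF1 element, known by name. No base of 1 motif was shared with another in these stretches. The GENCODE start lay 94 bases upstream of the RefSeq start in Hexim1, 4 in Polr2a and 1 in Taf13, and it did not lie upstream in Gtf2f1 and Gtf2a1. In Gtf2b it lay 202 bases upstream, which left 48 bases of the window, and its sequence is not shown.
Polr2a, chr11:69758638-69758787, minus strand: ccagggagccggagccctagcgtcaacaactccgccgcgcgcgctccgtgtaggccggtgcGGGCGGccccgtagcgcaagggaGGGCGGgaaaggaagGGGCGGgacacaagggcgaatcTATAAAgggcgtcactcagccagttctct
Taf13, chr3:108571548-108571697, plus strand: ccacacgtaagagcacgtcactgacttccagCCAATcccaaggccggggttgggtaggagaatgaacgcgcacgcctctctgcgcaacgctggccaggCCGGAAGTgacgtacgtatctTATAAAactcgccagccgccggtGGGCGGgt
Hexim1, chr11:103116081-103116230, plus strand: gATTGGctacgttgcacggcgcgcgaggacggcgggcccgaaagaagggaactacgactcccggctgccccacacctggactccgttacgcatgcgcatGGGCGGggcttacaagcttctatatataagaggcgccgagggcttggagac
Gtf2f1, chr17:57011289-57011438, minus strand: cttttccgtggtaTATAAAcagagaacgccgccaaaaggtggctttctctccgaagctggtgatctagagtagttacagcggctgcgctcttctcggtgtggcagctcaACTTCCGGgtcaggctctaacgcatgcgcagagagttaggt
Gtf2a1, chr12:91590488-91590637, minus strand: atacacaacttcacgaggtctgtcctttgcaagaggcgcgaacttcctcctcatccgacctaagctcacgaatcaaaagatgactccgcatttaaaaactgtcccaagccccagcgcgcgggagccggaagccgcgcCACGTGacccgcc

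TATAAA began 29 bases upstream of the end of the printed stretch in Polr2a and 31 bases upstream in Taf13, the distance at which TATA boxes usually lie, and 137 bases upstream in Gtf2f1. Only this exact spelling was searched for, so similar stretches, such as tatatataag near the end of the Hexim1 sequence, are not marked or counted. Over the promoter windows of 300 bases in that table, 37 members were matched, with 43 windows. TATAAA was present in 8 of these 43 windows (18.6%) and in 13.6% of all 32851 windows. GGGCGG was present in 30 (69.8%) beside 35.7% of all windows, CCGGAAGT in 12 (27.9%) beside 3.89%, CACGTG in 9 (20.9%) beside 7.15%, CCAAT in 12 (27.9%) beside 37.4%, TGACGTCA in 2 (4.65%) beside 1.79% and the NRF1 element in 0 beside 0.971%. By gene, TATAAA was found in 5 of 20 matched members that rose at 4 weeks (Polr2a, Taf13, Taf6, Taf11 and Gtf2f1), in 3 of 15 that did not pass and in 0 of 2 that fell. The counts are descriptions of these letters in these windows, with no test.

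The knockout effects of the stages were compared in a limma fit of all 12 samples, as the log2 fold change at 4 weeks minus that at E10.5. Of the 43 members tested, 28 differed, against 53.1% of 8909 genes, with 22 more positive at 4 weeks and 6 more negative. The 53.1% covers both directions, and the share of all genes in each direction was not counted. The median difference was 0.50 over the members and 0.05 over all genes. Polr2a had the largest difference, 2.54 (95% interval 2.21 to 2.87, limma adjusted p = 1.10e-07), and so differed in size and not in direction between the stages. Gtf2b followed with 1.84 (95% interval 1.56 to 2.11) and Hexim1 with 1.59 (1.08 to 2.09), genes that did not pass at E10.5. Polr2h, lower at E10.5, differed by 0.90 (0.43 to 1.37). Ccnh had the most negative difference, -1.37 (-1.83 to -0.91, limma adjusted p = 0.000152). The stages also differed in age, tissue (whole embryonic heart or isolated cardiomyocytes), the Cre, the time since deletion and the state of the heart. These cannot be told apart. In the paper, the adult knockout mice had dilated cardiomyopathy and signs of cardiomyocyte death, while the embryonic RNA was taken before overt heart defects. Cardiomyocyte proliferation was already reduced in both ventricles of the cKO at E10.5 in the paper. The paper proposes that the adult changes likely mix primary targets with secondary ones that may reflect cardiac dysfunction. The part of heart disease in the members' changes was not tested.

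**Figure D5:**
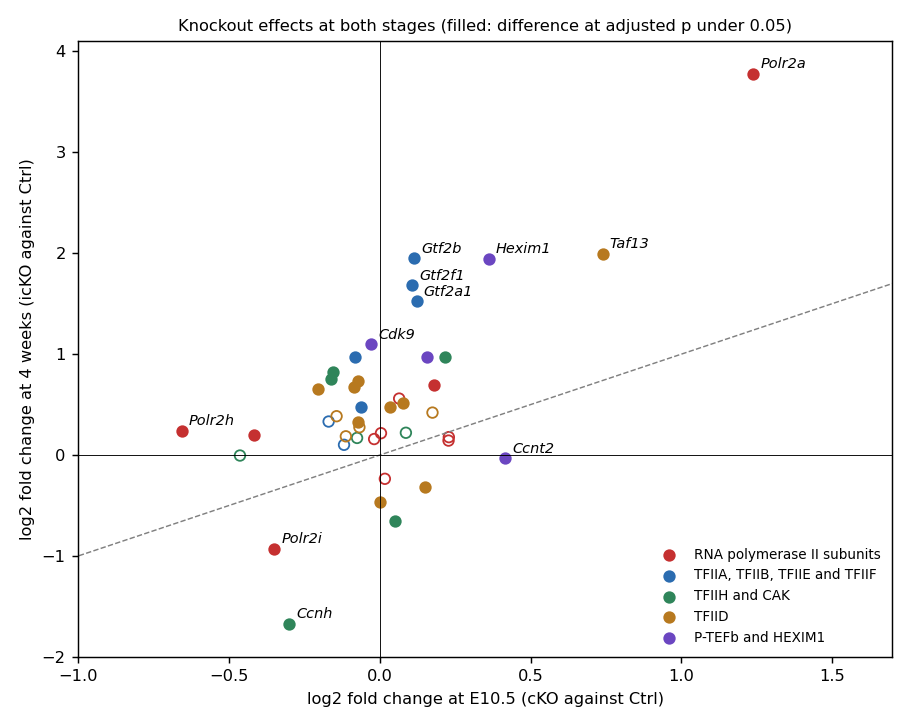
Log2 fold change of each of 43 members at E10.5 (horizontal) against 4 weeks (vertical), coloured by complex, with filled points where the difference between the stages had a limma adjusted p under 0.05 and a dashed line at equal values. Polr2a is at 1.24 and 3.78, apart from all other members, and Gtf2b, Hexim1 and Gtf2f1 lie high at 4 weeks while within 0.36 of 0 at E10.5.

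Other genes of the transcription machinery, from lists of 78 genes, gave the setting for the members. At 4 weeks, 30 of 73 tested were higher (41.1%) and 14 lower (19.2%), beside 34.7% and 33.5% of all genes. The shares higher and lower were 60% and 10% for the pausing and elongation factors. They were 50% and 10% for the other TFIID, TFIIH and TBP-related genes. Of 30 pausing and elongation factors, 18 were higher and 3 lower, with Ell2 of the super elongation complex at a log2 fold change of 1.52 (by limma, adjusted p = 2.33e-05) and the pausing factor gene Nelfe at 1.19 (limma adjusted p = 0.000125), and with Tcea3, a TFIIS family gene, at -3.25 (limma adjusted p = 4.79e-07) and Larp7, whose product works with HEXIM1 in the complex that sequesters P-TEFb, at -1.37 (limma adjusted p = 2.78e-05). Larp7 fell where Hexim1 rose. Of 10 other TFIID, TFIIH and TBP-related genes, 5 were higher and 1 lower. The 4 with the largest change were Ercc3, a TFIIH helicase gene, with 0.75, Dr1 with 0.64, Taf4b with 0.63 and Tbpl1 with 0.63.

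The subunits particular to RNA polymerases I and III showed 3 higher (15.8%) and 5 lower (26.3%) of 19 at 4 weeks, with a median of -0.07. The background was 34.7% and 33.5% of all genes. Among those called were Polr1a, the largest subunit of polymerase I (-1.24, limma adjusted p = 8.87e-06), Polr3f (0.91, limma adjusted p = 0.000294) and Crcp (0.63, limma adjusted p = 0.01). Polr1a was 13.5, 13.2 and 11.4 scaled RPKM in adult Ctrl and 5.52, 5.10 and 5.34 in icKO, below every Ctrl sample, whereas its Pol II counterpart Polr2a was above every Ctrl sample. A further list held Pol II assembly factors, phosphatases of its carboxy-terminal domain and other genes linked to Pol II, such as Polr2m. Of 14 tested, 4 were higher (28.6%) and 5 lower (35.7%), near the shares of all genes. Among them were Gpn2 with 1.41, the phosphatase genes Ssu72 with 1.03 and Ctdp1 with 0.92, and Polr2m with -0.85. At E10.5, 0 of the 73 tested were higher and 2 (2.74%) were lower by limma, beside 2.45% and 2.6% of all genes. The 2 were Polr1d (-0.62, limma adjusted p = 0.0431) and Mllt3 (-0.40, limma adjusted p = 0.044). An unadjusted p under 0.05 was found in 13 (17.8%), beside 23.3% of all genes.

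Other cell type markers are given as the lowest to highest summed RPKM of the samples in Ctrl and then in the knockout. The sums are of RPKM as deposited, while the counts of markers called are after median-ratio scaling. The factors were 0.822 to 0.834 in adult Ctrl and 1.17 to 1.24 in icKO, and after division by them the adult endothelial sums overlap between the groups. At 4 weeks the 6 endothelial markers summed to 8.25 to 19.2 and 21.8 to 32.7, with 2 of 6 higher, the 5 macrophage markers to 1.48 to 2.12 and 3.41 to 4.28, and the 8 erythroid markers to 1.16 to 21.2 and 11.4 to 26.0. The mural (45.5 to 70.8 and 40.4 to 72.2), endocardial (3.27 to 4.88 and 4.33 to 5.67) and epicardial sums (0.817 to 2.001 and 1.47 to 2.33) overlapped. Of 3 mural markers tested at 4 weeks, 1 was lower. Of the 8 cardiomyocyte markers, 7 were lower and 1 was higher. At E10.5, 2 of 8 cardiomyocyte markers were lower (4538 to 5979 and 3380 to 3986). The mural sums did not overlap (352 to 385 and 429 to 508), but 0 of 3 mural markers tested were called. Of 6 endothelial markers, 1 was called higher. The fibroblast (82.4 to 154 and 109 to 125), endothelial (108 to 155 and 133 to 142), endocardial (25.4 to 32.2 and 25.8 to 33.2), epicardial (39.8 to 45.7 and 30.6 to 45.2), erythroid (257 to 813 and 362 to 2199) and macrophage sums (2.04 to 2.32 and 1.87 to 2.48) overlapped, with C1qa at 0 in Ctrl. The part of these shifts in the members' changes was not tested, and fewer cells of a type and less RNA per cell cannot be told apart in these bulk samples.

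In all, 16 of the 44 members overlap another protein-coding gene, 15 of them on the opposite strand. Overlap here is of whole genes with their introns, and whether exons overlap was not examined. Among the partners not yet named, Igfbp7 (opposite Polr2b) and Ilk (opposite Taf10) rose at 4 weeks by 1.83 and 0.91 on the log2 scale, and Anks1 (opposite Taf11) and Pdcd2 (opposite Tbp) fell by 2.02 and 0.76, each at a limma adjusted p under 0.05. Taf9 shares its strand with Ak6, which had 0.28 and did not pass.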

How the data were processed

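RNA-seq of 3 Ctrl and 3 knockout samples at each of 2 stages was analysed from the deposited tables, which hold RPKM (reads per kilobase, scaled to the size of the library) that the authors computed per gene from libraries of ribosomal RNA-depleted total RNA mapped to mm10. The submitters' processing notes name cutadapt 2.6, STAR 2.5.3a, HOMER 4.11.1 and DESeq2 1.12.4. The gene annotation and the strand setting of the counting are not given in the sources used here. Columns with the authors' own log2 fold change, FDR and mean RPKM were not used. Columns and samples were matched by stage, group and replicate number.

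RPKM were divided by median-ratio factors computed within each table (0.933 to 1.12 at E10.5, 0.822 to 0.834 in adult Ctrl and 1.17 to 1.24 in icKO). Each stage was fitted alone with limma 3.58.1 (lmFit, eBayes with trend) in R 4.3.3 on log2(scaled RPKM + 0.1), restricted to genes whose mean RPKM exceeded 1, with Benjamini-Hochberg adjustment over all genes tested. Fold changes are on that scale, which understates those of low genes. A member was called at an adjusted p under 0.05. Stage differences were a contrast in a fit of all 12 samples. With 3 samples against 3, exact permutation could not go below p = 0.1, so none was used. The fits were tested on simulated data. Reads per sample were estimated from the spacing of low RPKM values, of which 68.2% to 73.5% lay within 0.1 of a whole read, and cover counting error only. No count model was fitted.

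The members, the other gene lists and the markers were chosen with earlier results of these data known. Any member may be named. Values in every sample are given for Polr2a, Gtf2b, Tbp, Taf1, Cdk7, Cdk9 and Hexim1, and per stage for the 6 called members that rose most and the 6 that fell most. Of the other machinery, up to 4 called genes per list and stage with the largest change are named. Some values that these rules would name are not reported here. Ratios between genes, and genes named outside these rules, were picked once values had been seen. Lists are described by counts and medians, with no test of the list. Markers were those of cardiomyocytes, fibroblasts, macrophages, erythroid, mural, endothelial, endocardial and epicardial cells. Alternatives were RPKM as deposited, scaling with the 20 most abundant genes left out, quantile normalization, pseudocounts of 1 and 0.01, no filter, a mean RPKM above 5, eBayes without a trend, a block for the replicate number, and leaving out each replicate. Promoters came from RefSeq (GRCm38.p6) and positions from GENCODE, and tables were read with Python 3.11.15, pandas 2.3.3 and numpy 2.4.6.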

Additional observations from a re-analysis of the deposited data

Results flagged for a closer look

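The knockout effect differed between the stages in 28 of 43 members tested, beside 53.1% of all genes tested. This was by an interaction contrast fitted with limma over the 12 samples at an adjusted p under 0.05. The values are the log2 fold change at 4 weeks minus that at E10.5. Among the Pol II subunits the difference was 2.54 for Polr2a, 0.90 for Polr2h, 0.61 for Polr2f, 0.51 for Polr2d and -0.58 for Polr2i. For TFIIA, TFIIB, TFIIE and TFIIF it was 1.84 for Gtf2b, 1.58 for Gtf2f1, 1.40 for Gtf2a1, 1.05 for Gtf2f2 and 0.54 for Gtf2e2. In TFIIH and its kinase it was 0.98 for Mnat1, 0.91 for Gtf2h5, 0.76 for Gtf2h1, -0.70 for Gtf2h2 and -1.37 for Ccnh. In TFIID it was 1.26 for Taf13, 0.86 for Taf9, 0.80 for Taf10, 0.76 for Taf11, 0.44 for Taf12, 0.44 for Taf1, 0.40 for Taf6, -0.47 for Tbp and -0.47 for Taf7. In P-TEFb and its inhibitor it was 1.59 for Hexim1, 1.13 for Cdk9, 0.81 for Ccnt1 and -0.45 for Ccnt2. Taf12, Polr2i, Gtf2h2, Tbp, Taf1 and Taf7 were nearest to the threshold, with limma adjusted p between 0.0232 and 0.0443.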

How the results depend on the processing

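At E10.5, the 1 member called higher became 3 with scaling without the 20 most abundant genes (Taf13 and Ccnt2 added), where 3.76% of all genes were higher. It became 2 with a mean RPKM above 5. The 1 called lower became 2 with RPKM as deposited, where 3.45% of all genes were lower, and 0 with eBayes without a trend. Leaving out 1 replicate gave 1 to 2 members higher and 0 to 1 lower, with 0 lower without any of the Ctrl replicates. The median log2 fold change was -0.12 with RPKM as deposited, beside -0.13 for all genes. At 4 weeks, RPKM as deposited gave 38 members higher, 2 lower, 21 beyond 2-fold and a median of 0.89. Of all genes, 60.6% were higher and 18.1% lower, with a median of 0.57. Scaling without the 20 most abundant genes gave 36 members higher, 14 beyond 2-fold and a median of 0.66. Of all genes, 49.97% were then higher, with a median of 0.33. The share of all genes beyond 2-fold was not counted under these scalings. A mean RPKM above 5, with 30 members tested, gave 2 lower and a median of 0.50. Leaving out 1 replicate gave medians of 0.31 to 0.48, the highest without icKO replicate 3. With RPKM as deposited, Tbp at 0.20 and Taf7 at 0.051 reversed at 4 weeks, neither passing the test. Of 235 alternative values of 16 named results, 223 kept direction and side of the threshold, 7 lost the call, 3 gained one and these 2 reversed. The number of members that differed between stages ranged from 23 to 29 with 1 replicate left out. The causes were not tested.

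With the replicate number as a block, 2 members were higher at E10.5, against 1 without it, and 22 at 4 weeks, against 23. The 16 named results counted above kept their calls. Deviations of samples with the same number correlated at 0.01, 0.10 and -0.07 at E10.5 and at 0.15, 0.04 and 0.04 at 4 weeks, so the numbers were not taken to pair the samples.

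Polr2k and Polr2l lay near 1 RPKM at E10.5, where few reads limit precision, and their 95% intervals spanned 0.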
